A study of Mus musculus with 36 samples.

Results

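Gfap, Lcn2, Vim, Serpina3n, Cd44, Itih3, Osmr and Timp1, a set of reactive astrocyte and acute-phase genes, were followed in 3 brain regions of mice given a histone deacetylase (HDAC) inhibitor or vehicle. The regions were hippocampus (HIP), nucleus accumbens (NAc) and medial prefrontal cortex (PFC). The 8 genes were found by symbol and had 22 of the 45281 probes on the Illumina MouseWG-6 BeadChip. They were picked because of how some of them differed from vehicle in these same arrays, opposite differences of Gfap between regions included, so each difference from vehicle given for them is a description without a test. Levels were compared between regions of vehicle mice with a test, since the choice of genes did not use those comparisons. The choice did use the same vehicle arrays, so for Gfap the test is not fully independent of it.

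The animals were adult male C57BL/6J mice given 10 daily intraperitoneal injections, and tissue was taken 1 hour after the last. Treatments were Cpd-60 at 45 mg/kg, SAHA at 25 mg/kg, CI-994 at 10 mg/kg, or the vehicle of saline, polyethylene glycol and DMSO. Injection volume was 7.5 mL/kg for Cpd-60 and vehicle and 5 mL/kg for SAHA and CI-994. SAHA and CI-994 groups therefore differ from vehicle in volume as well as in drug, and the 2 cannot be told apart. Cpd-60 and CI-994 are benzamides and SAHA is a hydroxamate. Because their doses differ, their values are given side by side and no order of the drugs is read from them. Each treatment had 6 mice, pooled by 2 into 3 RNA pools per region, which gave 36 arrays. An array therefore holds the average of 2 mice, and a response of 1 animal cannot be told apart from that of both.

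Astrocytes answer injury and inflammation with reactive gliosis, in which the intermediate filament proteins GFAP and vimentin accumulate. Cytokines of the interleukin-6 family, which act through receptors that contain gp130, drive much of this response through JAK kinases and the transcription factor STAT3, and the same pathway drives acute-phase protein synthesis in liver. OSMR is the oncostatin M receptor subunit of this family. Lcn2 encodes lipocalin 2, a secreted protein that binds iron-carrying siderophores. Serpina3n encodes an extracellular serine protease inhibitor, and Timp1 encodes an inhibitor of matrix metalloproteinases. Itih3 encodes a heavy chain of the inter-alpha-trypsin inhibitor that can be linked to hyaluronan, and CD44 is a hyaluronan receptor. In whole tissue, fewer astrocytes and less RNA per astrocyte cannot be told apart.

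All 8 genes had a promoter sequence in the RefSeq table of GRCm38.p6. The windows of Gfap and Lcn2 are shown as those of the genes described at most length that held a match to the letters searched. Itih3, whose largest difference from vehicle exceeded those of Gfap, held none. Each runs from 250 bases before the annotated start to 20 bases after it, on the gene's own strand. Capitals mark TTC followed by GAA after 3 bases (TTCNNNGAA) or after 4 bases, palindromic spacings to which STAT proteins can bind. Each reads the same on both strands, so both strands were searched at once.

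Gfap, minus strand, chr11:102897181-102897450: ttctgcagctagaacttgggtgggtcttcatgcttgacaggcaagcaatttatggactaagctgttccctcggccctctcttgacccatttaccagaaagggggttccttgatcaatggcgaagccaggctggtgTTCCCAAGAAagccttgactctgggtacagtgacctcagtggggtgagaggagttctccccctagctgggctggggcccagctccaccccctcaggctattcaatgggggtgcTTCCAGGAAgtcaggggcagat
Lcn2, minus strand, chr2:32387720-32387989: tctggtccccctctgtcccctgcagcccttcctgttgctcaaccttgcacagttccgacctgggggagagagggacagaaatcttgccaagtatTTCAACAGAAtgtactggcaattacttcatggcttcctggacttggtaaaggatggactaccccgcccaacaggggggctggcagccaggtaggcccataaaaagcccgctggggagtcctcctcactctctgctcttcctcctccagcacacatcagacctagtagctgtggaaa

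Gfap held the spacing of 4 bases from base -115 and that of 3 bases from base -2, counted from the start, and the 2 matches did not overlap. Lcn2 held the spacing of 4 bases from base -156, and Cd44 held it from base -211. The other 5 genes held neither. The spacing of 3 bases was present in 7.58% and that of 4 bases in 6.3% of 32851 windows of the same length, and 13.3% held either. A match is a description of letters and not of a bound site.

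Signal is given below as log2 of intensity after quantile normalization of the 36 arrays. Signals were compared within a probe and not between probes. A probe counted as detected where the deposited detection p-value was at most 0.01, and a gene is represented by its brightest tested probe. Gfap, Vim, Serpina3n and Itih3 were detected on all 36 arrays. Osmr was detected on 23, Cd44 on 22, Lcn2 on 10 and Timp1 on 3 of the 36 arrays. Of the 22 probes, 9 were detected on no array, among them 6 of 9 for Cd44. All 8 genes passed the filter on low values in PFC and 7 in NAc and HIP, where Timp1 did not pass.

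Raw 95th percentiles ranged from 349.9 to 1079.7 over the 36 arrays, and arrays of 1 group correlated at 0.970 to 0.994. The SAHA arrays of pools 2 and 3 in HIP were the dimmest of that region, with a 95th percentile of 437.7 and 452 against 593.6 to 850.1 on the HIP arrays of other treatments. The 9 striatal neuron markers averaged 9.97 to 10.67 in NAc and at most 7.69 in PFC and 7.29 in HIP, as the dissection labels imply, and 15 homeostatic astrocyte markers averaged 9.05 to 9.49 in all 3 regions. Each BeadChip held a single region, so chip and region cannot be told apart, while both chips of a region held all 4 treatments. Their split was uneven: vehicle and Cpd-60 had pools 1 and 2 on the first chip of a region and pool 3 on the second. SAHA and CI-994 had pool 1 on the first and pools 2 and 3 on the second. A difference of SAHA or CI-994 from vehicle is therefore partly mixed with chip. The second Cpd-60 pool is mice 3 and 4 by the title and source labels, but the description of its arrays names mice 1 and 2. The title was followed here.

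Of the 6 genes tested between regions, Gfap had the widest range. In vehicle mice, pools 1 to 3 read 10.81, 10.70 and 10.22 in HIP. They read 9.60, 9.40 and 8.69 in PFC. They read 7.89, 7.46 and 7.58 in NAc. The 3 regions did not overlap, with HIP highest and NAc lowest. HIP exceeded PFC by 1.35 ± 0.29 (SE; adjusted p = 0.0024, limma with pool as a block), which is 2.54-fold. PFC exceeded NAc 3.00-fold, a NAc minus PFC difference of -1.59 ± 0.29 (adjusted p = 0.00051, limma). HIP exceeded NAc 7.64-fold, by 2.93 ± 0.29 (adjusted p = 3.09e-07, limma). The second Gfap probe ordered the regions alike, with 1.10 for HIP minus PFC, -0.48 for NAc minus PFC and 1.57 for HIP minus NAc, each past the threshold (adjusted p of 0.046 at most, limma). These tests drew on all 36 arrays for the spread.

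**Figure D1:**
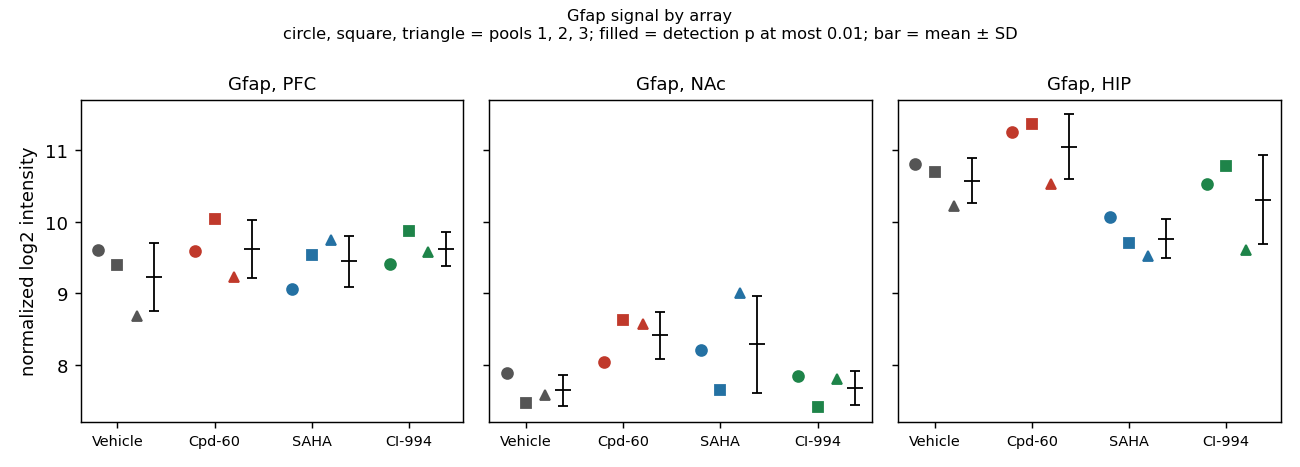
Gfap signal (normalized log2 intensity, vertical axis) on each array, by region and treatment, with the mean ± SD of the 3 pools beside each group. HIP is highest and NAc lowest under vehicle, all 3 SAHA pools lie below the vehicle pools in HIP, and all 3 Cpd-60 pools lie above them in NAc.

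Serpina3n was also highest in HIP. Vehicle pools read 9.12, 9.39 and 9.46 in HIP, 7.38, 7.58 and 7.80 in PFC and 7.55, 7.15 and 6.88 in NAc. HIP stood clear of the other regions, which overlapped. HIP exceeded PFC by 1.74 ± 0.18 (adjusted p = 1.45e-06, limma), or 3.33-fold, and NAc by 2.13 ± 0.18 (adjusted p = 4.05e-08, limma), or 4.37-fold. NAc and PFC differed by -0.39 ± 0.18, which did not pass the threshold (adjusted p = 0.15, limma).

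Vim varied little between regions. It was lower in NAc than in PFC (means 7.44 and 7.79), with a NAc minus PFC difference of -0.35 ± 0.10 (adjusted p = 0.017, limma), and its other 2 regional differences did not pass. Itih3 averaged 8.70 in NAc, 8.30 in HIP and 8.09 in PFC of vehicle mice. No Itih3 difference between regions passed (lowest adjusted p = 0.11, limma), and none did for Cd44 or Osmr. In all, 6 calls were made for the 6 genes tested between regions. Of all 22606 probes tested, 23.7% passed for HIP minus PFC, 18.5% for NAc minus PFC and 15.6% for HIP minus NAc. With the chip as a random block the count was 6 as well.

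Against vehicle, 6 of the 66 pairs of a gene and a drug comparison had 3 drug pools that did not overlap the 3 vehicle pools and a difference of at least 1.2-fold. These were Lcn2 under Cpd-60 in each region, Gfap under Cpd-60 in NAc, Gfap under SAHA in HIP and Itih3 under SAHA in NAc. In NAc and HIP, Lcn2 passed the filter on low values only through the Cpd-60 group, where it was high. Of all probes tested, the share that met the same rule was 0.849% in PFC, 1.74% in NAc and 1.22% in HIP for Cpd-60. It was 0.14%, 0.688% and 4.19% for SAHA and 0.564%, 0.469% and 0.597% for CI-994. Nothing is read from these counts, since the genes were chosen on such differences. No probe of the array passed an adjusted p of 0.05 against vehicle for any drug in any region (limma), while the share with an unadjusted p under 0.05 was 5.19%, 4.77% and 5.26% for Cpd-60 in PFC, NAc and HIP, 2.25%, 2.05% and 9.37% for SAHA and 3.98%, 1.99% and 3.24% for CI-994.

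**Figure D2:**
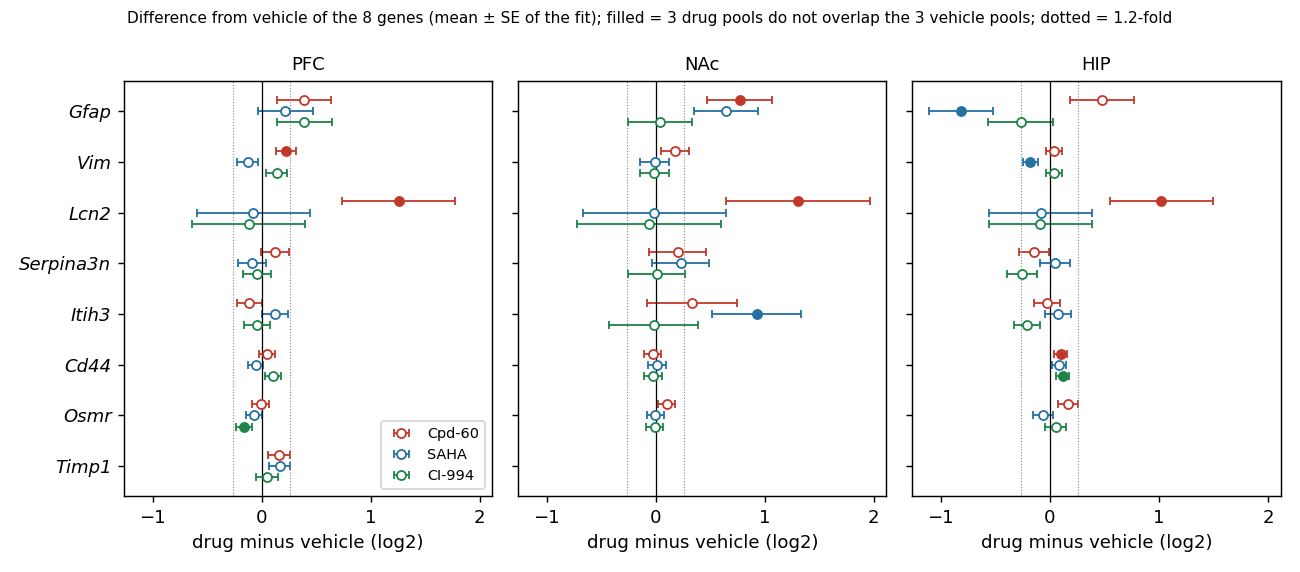
Drug minus vehicle (log2, horizontal axis) for the 8 genes in each region, with the SE of the fit; filled points mark drug pools that do not overlap the vehicle pools and dotted lines mark 1.2-fold. Lcn2 stands to the right under Cpd-60 in all 3 regions, and Gfap under SAHA stands to the right in NAc and to the left in HIP.

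Gfap under SAHA differed in opposite directions by region. In HIP the SAHA pools read 10.06, 9.70 and 9.53, all below the lowest vehicle pool of 10.22. The difference was -0.81 ± 0.29 (SE), 1.76-fold lower. In NAc they read 8.21, 7.65 and 9.004 against a highest vehicle pool of 7.89, and the difference was 0.64 ± 0.30. It was 0.28 without SAHA pool 3 and 0.96 without SAHA pool 2. The NAc groups overlapped, and pool 2 exceeded the vehicle mean by 0.0021 only. In PFC the pools read 9.06, 9.53 and 9.75, with a difference of 0.22 ± 0.25 and overlap with vehicle, and the difference turned to -0.05 without vehicle pool 3. Under SAHA, Gfap in HIP and PFC overlapped (9.53 to 10.06 and 9.06 to 9.75), whereas under vehicle they did not.

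In HIP the SAHA arrays of pools 2 and 3 were the dim ones. Pool 1, which was brighter, differed from the vehicle mean by -0.51, and pools 2 and 3 by -0.88 and -1.05. All 3 SAHA arrays detected fewer probes than the other HIP arrays, at 34.3%, 32.1% and 32.3% in pools 1 to 3 against 37.3% to 39.7%. The second Gfap probe differed by -0.37 ± 0.23 in HIP and 0.21 ± 0.12 in NAc under SAHA, the same directions with smaller sizes and with overlap. Oligodendrocyte markers were also lower in HIP under SAHA. The 9 markers averaged 10.34 to 10.49 under SAHA and 10.55 to 10.73 under vehicle, and 4 of them (Mbp, Mobp, Mog and Mal) were lower at an unadjusted p under 0.05, which 9.37% of all probes had in this comparison. The 7 ependymal markers averaged 7.03 to 7.13 against 7.17 to 7.27, with Ak7 detected on no HIP array. The 3 tested blood markers averaged 9.79 to 10.21 against 10.23 to 10.47, and the hemoglobin gene Hba-a1 differed by -0.52 ± 0.18 with no overlap. Some of these markers were also lower in HIP under the other drugs, where Gfap was not separated from vehicle. Oligodendrocyte, ependymal and blood markers averaged 10.34 to 10.55, 7.08 to 7.21 and 9.79 to 9.88 under CI-994. They averaged 10.61 to 10.71, 7.06 to 7.14 and 10.02 to 10.29 under Cpd-60. The part of these markers, of array brightness and of the share of probes detected in the Gfap difference was not tested.

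Under Cpd-60, mean Gfap lay above vehicle in all 3 regions. In NAc the pools read 8.04, 8.62 and 8.58, all above vehicle, and the difference was 0.77 ± 0.30, or 1.70-fold. In HIP they read 11.26, 11.36 and 10.53 and the difference was 0.48 ± 0.29. In PFC they read 9.60, 10.03 and 9.22 and the difference was 0.39 ± 0.25. In HIP and PFC the groups overlapped, and without vehicle pool 3, the lowest vehicle array of each, the differences were 0.30 and 0.12. For the second probe the difference was 0.11 ± 0.12 in NAc, with overlap, and 0.55 ± 0.23 in HIP. The NAc separation was therefore present in the brighter probe only, and the mean of both probes gave 0.44 in NAc.

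Under CI-994, Gfap overlapped with vehicle in each region. The pools read 9.41, 9.88 and 9.57 in PFC, 7.84, 7.41 and 7.80 in NAc and 10.53, 10.79 and 9.61 in HIP. The differences were 0.39 ± 0.25, 0.04 ± 0.30 and -0.27 ± 0.29. The HIP value turned to 0.08 without CI-994 pool 3, and the PFC value was 0.12 without vehicle pool 3.

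Vim, the partner filament gene, differed less. Cpd-60 pools in PFC read 8.02, 7.996 and 8.03 and stood above the vehicle pools of 7.78, 7.89 and 7.70. The difference of 0.22 ± 0.10 was under 1.2-fold. In HIP, SAHA pools read 7.38, 7.38 and 7.45 and stood below vehicle pools of 7.52, 7.65 and 7.57, a difference of -0.18 ± 0.07. In the other 7 comparisons Vim overlapped with vehicle and differences ran from -0.13 to 0.18.

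Lcn2 had the largest differences of the 8 genes, and these lay mostly in 1 pool. In vehicle mice it read 6.77, 6.76 and 6.59 in PFC, 6.52, 6.50 and 6.54 in NAc and 6.51, 6.56 and 6.65 in HIP. It was detected on 2 vehicle arrays, both in PFC, and was not well above background in NAc and HIP. Cpd-60 pools read 6.91, 9.79 and 7.18 in PFC, 6.69, 9.95 and 6.83 in NAc and 6.86, 9.22 and 6.71 in HIP. The second pool stood far above every other array of its region. The other 2 Cpd-60 pools also stood above the highest vehicle pool in each region, by less.

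That second pool exceeded the highest of the other 11 arrays 6.10-fold in PFC, 8.69-fold in NAc and 5.14-fold in HIP. In raw intensity it read 1015.4, 799.4 and 723.2, against at most 127, 137.5 and 113 elsewhere. The mean difference from vehicle was 1.26 ± 0.52 in PFC, or 2.39-fold. Measured against the lowest detected signal of the vehicle arrays, Lcn2 was at least 2.14-fold higher under Cpd-60 in NAc (measured difference 1.30 ± 0.66) and at least 1.86-fold higher in HIP (1.02 ± 0.47). Without the second pool these differences were 0.34, 0.24 and 0.21, and only that in PFC stayed past 1.2-fold. SAHA and CI-994 arrays read 6.35 to 6.63 and none of the 18 was detected. In each region the first and second Cpd-60 pools differed strongly in Lcn2, whichever mice the description means.

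**Figure D3:**
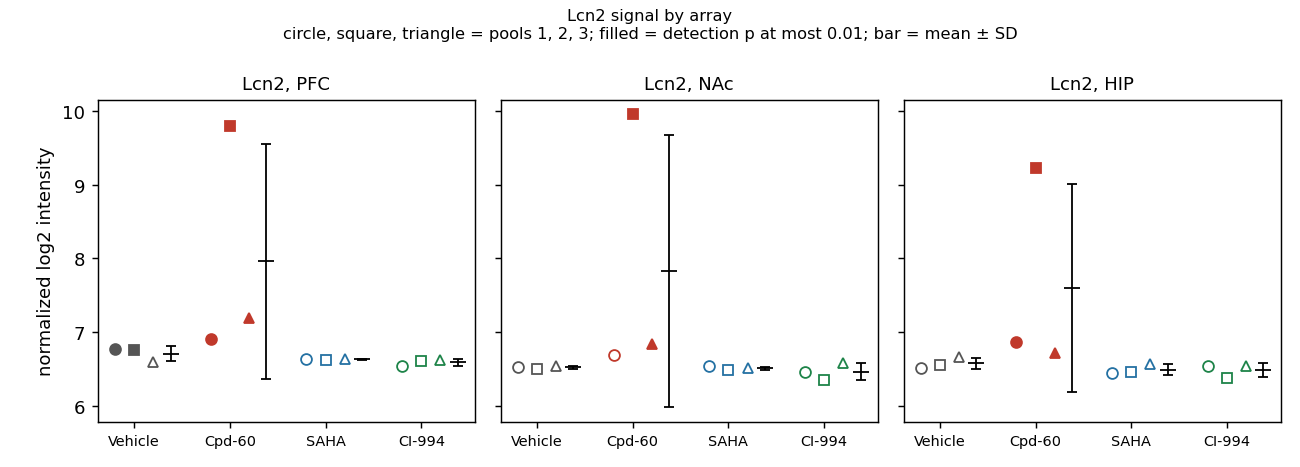
Lcn2 signal (normalized log2 intensity, vertical axis) on each array, by region and treatment; open symbols were not detected and bars give the mean ± SD of the 3 pools. The second Cpd-60 pool (square) reads 9.22 to 9.95 in all 3 regions, and no other array exceeds 7.18.

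The same pool stood apart in further probes. In it, 36 probes lay at least 1.2-fold above the other 11 arrays in each of the 3 regions and 1 lay below, while every other pool had 0 or 1 such probe in either direction. Lcn2 led the 36. Next in order, named after their values were seen, came the probe labelled Per, then Ybx3, Cdkn1a, E030034J16Rik and Arrdc4, and all 3 Cdkn1a probes on the list were among the first 8. Cdkn1a encodes a cyclin-dependent kinase inhibitor. Further down, the list also held Tsc22d3, a gene induced by glucocorticoids, and Cebpb, a transcription factor of the acute-phase response. Their smallest margins over the regions were 0.33 and 0.34, and that of Lcn2 was 2.36. These 2 genes were picked for their function, and whether the list shares a function was not tested. No other of the 8 genes was on it.

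Some of the other genes were also highest in that pool. Serpina3n in NAc read 8.03 there, and the highest other NAc array read 7.56. Vim in NAc read 7.88 against 7.64. Osmr in HIP read 7.13 against 6.87, and Timp1 in PFC read 7.02 against 6.80. Gfap was highest there in PFC and HIP, with 10.03 and 11.36, but not in NAc. Vim in HIP and Osmr in NAc were highest there too, each by 0.02. Itih3 and Cd44 were not highest there in any region.

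**Figure D4:**
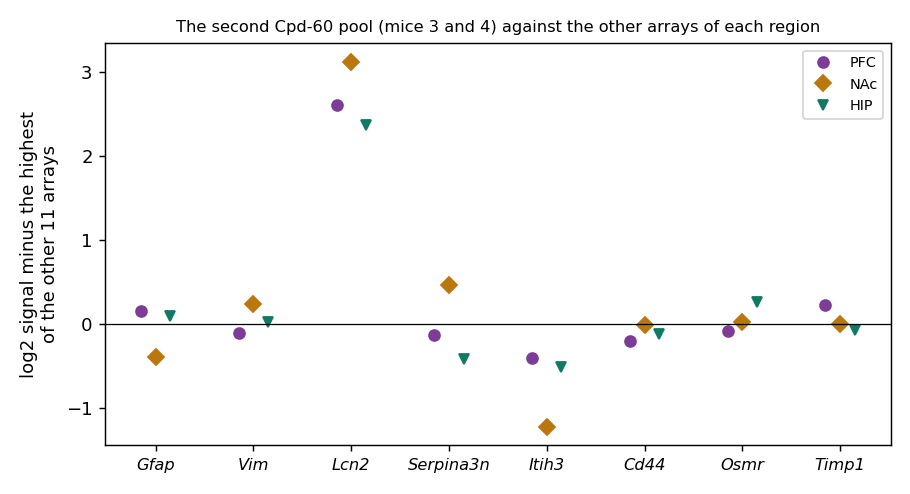
Signal of the second Cpd-60 pool (mice 3 and 4) minus the highest of the other 11 arrays of its region (log2, vertical axis), for the 8 genes and 3 regions. Lcn2 lies 2.36 to 3.12 above the next array, and no other gene lies more than 0.47 above it.

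Choroid plexus, endothelial, microglial and blood markers averaged no higher in this pool than on the highest vehicle array of each region. Homeostatic astrocyte markers did average higher in it, with 9.42 against 9.35 to 9.38 in PFC, 9.45 against 9.30 to 9.37 in NAc and 9.49 against 9.35 to 9.36 in HIP. Over the 3 Cpd-60 pools they averaged 9.37 to 9.43 in PFC, 9.30 to 9.53 in NAc and 9.39 to 9.49 in HIP. Another Cpd-60 pool was thus higher in PFC and NAc. Ependymal markers in NAc (7.26 against 7.05 to 7.09), hippocampal neuron markers in PFC and NAc, oligodendrocyte markers in PFC and cortical neuron markers in HIP also averaged above the highest vehicle array. The part of these markers in the Lcn2 difference was not tested. The 5 tested choroid plexus markers averaged 6.92 in PFC, the lowest of the 3 Cpd-60 pools, with Folr1 and Sostdc1 detected on no PFC array. The 7 tested in NAc averaged 7.11, again the lowest of those pools, and the 8 in HIP averaged 7.98 against a vehicle range of 7.43 to 8.27. Endothelial and pericyte markers, of which Abcb1a and Kdr were detected on no array of any region, averaged 8.05, 7.82 and 7.67 in PFC, NAc and HIP. The corresponding vehicle ranges were 7.98 to 8.10, 7.82 to 7.97 and 7.68 to 7.73. Microglial markers, with Itgam detected on no array of PFC or NAc, averaged 7.90, 7.76 and 7.79, and vehicle arrays 7.89 to 7.94, 7.87 to 7.98 and 7.81 to 7.92. Blood markers averaged 10.40, 10.24 and 10.29 in it, beside vehicle ranges of 10.38 to 10.98, 10.24 to 10.66 and 10.23 to 10.47, with Hbb-b2 detected on no array.

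Itih3 varied in NAc and was steady elsewhere. SAHA pools in NAc read 9.42, 9.42 and 10.04 and vehicle pools 9.09, 8.83 and 8.19, so the groups did not overlap. The difference was 0.92 ± 0.41, or 1.90-fold. The second Itih3 probe separated the same groups, with 7.97, 7.92 and 8.48 against 7.82, 7.58 and 7.30 and a difference of 0.55 ± 0.27. Leaving out vehicle pool 3, the lowest, gave 0.67 for the first probe. Cpd-60 pools in NAc read 8.47, 8.83 and 9.81 and CI-994 pools 8.01, 8.63 and 9.41, and both overlapped with vehicle. In PFC and HIP all 24 arrays read between 7.88 and 8.55 and every comparison overlapped.

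Several cell type markers also differed from vehicle in NAc under SAHA. The 9 striatal neuron markers averaged 9.97 to 10.41 against 10.29 to 10.59 under vehicle, with a median difference of -0.27. The 7 choroid plexus markers averaged 7.18 to 7.44 against 7.02 to 7.12, and transthyretin (Ttr) read 8.06, 7.96 and 9.50 against 7.90, 7.31 and 7.26. The 7 ependymal markers averaged 7.14 to 7.24 against 7.05 to 7.09. Homeostatic astrocyte markers averaged 9.42 to 9.55 against 9.30 to 9.37. Blood markers were lower, at 9.94 to 10.21 against 10.24 to 10.66, and the hemoglobin genes Hba-a1 (-0.72 ± 0.33) and Hbb-b1 (-0.42 ± 0.24) did not overlap with vehicle. Under Cpd-60 in NAc, choroid plexus markers averaged 7.11 to 7.63 and homeostatic astrocyte markers 9.30 to 9.53. Under CI-994 in NAc, Itih3 and Gfap differed from vehicle by only -0.02 and 0.04. There choroid plexus markers averaged 7.16 to 7.26, also above vehicle, and ependymal markers 7.08 to 7.12. Striatal neuron markers averaged 10.16 to 10.50, blood markers 9.62 to 10.44 and homeostatic astrocyte markers 9.23 to 9.40. Whether the borders of the dissected tissue differed was not tested.

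**Figure D5:**
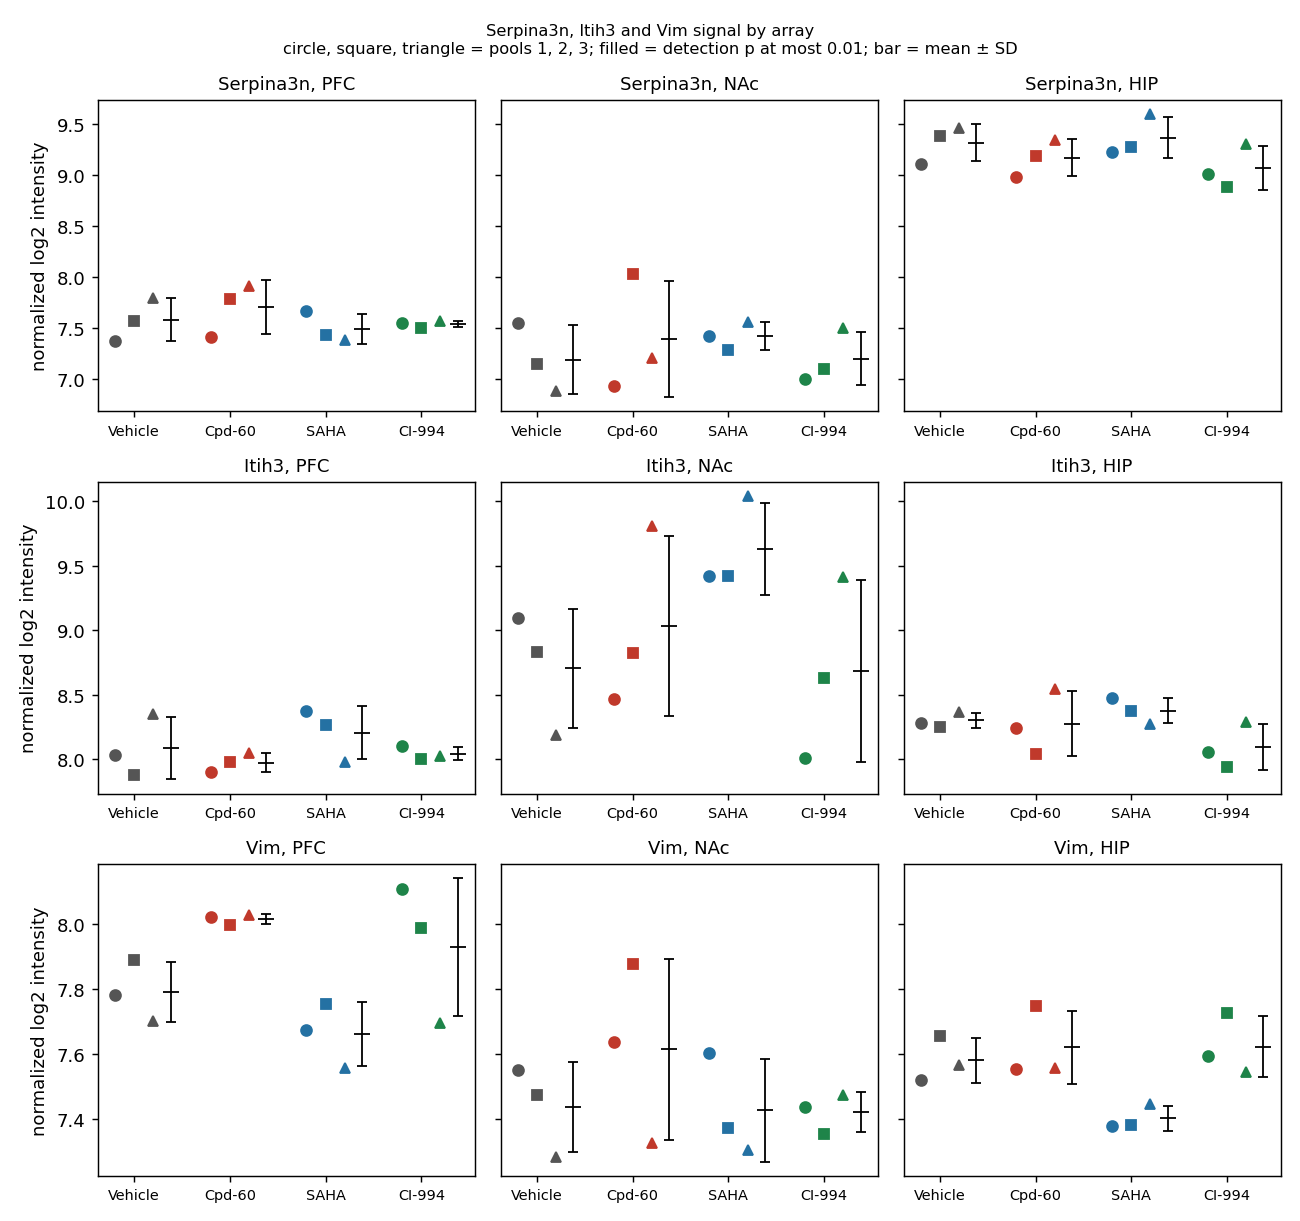
Serpina3n, Itih3 and Vim signal (normalized log2 intensity, vertical axis, one scale per gene) on each array, by region and treatment, with the mean ± SD of the 3 pools. Serpina3n is highest in HIP under every treatment, Itih3 spreads in NAc with all 3 SAHA pools above vehicle, and the 3 Cpd-60 pools of Vim in PFC lie above vehicle within 0.03 of each other.

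Serpina3n overlapped with vehicle in all 9 comparisons. Its differences ran from -0.25 ± 0.14 under CI-994 in HIP to 0.23 ± 0.26 under SAHA in NAc. In NAc the Cpd-60 pools read 6.94, 8.03 and 7.21, so the mean of 7.39 reflected the second pool. HIP exceeded the other regions under each drug as under vehicle, with group means of 9.07 to 9.37 in HIP and at most 7.71 in PFC and 7.42 in NAc.

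Cd44, Osmr and Timp1 read near background. The brightest of 3 tested Cd44 probes was detected on no vehicle array in HIP, which read 6.69, 6.69 and 6.64. It was detected on all arrays of Cpd-60 (6.79, 6.74 and 6.78) and CI-994 (6.79, 6.72 and 6.86), which was at least 1.05-fold and at least 1.06-fold higher. The other 2 tested probes overlapped with vehicle in HIP, with differences of 0.04 and -0.04 under Cpd-60 and 0.07 and -0.03 under CI-994, so the separation rests on 1 probe. Osmr in PFC was lower under CI-994, with 6.65, 6.69 and 6.76 against 6.95, 6.78 and 6.84, a difference of -0.16 ± 0.07. These separations were under 1.2-fold. Timp1 was detected on 3 arrays, all in PFC, namely the second Cpd-60 pool and SAHA pools 1 and 2 (6.80 and 6.79).

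Gfap did not track the other filament gene within groups, while Lcn2, Serpina3n, Itih3 and others had moderate correlations. Over the 36 deviations of an array from its group mean, Gfap correlated with Vim at 0.10, with Itih3 at 0.01 and with Serpina3n at -0.12. Lcn2 correlated with Timp1 at 0.53, with Serpina3n at 0.48 and with Vim and Osmr at 0.42 each, and these were 0.32, 0.34, 0.23 and 0.25 over the 33 arrays without the second Cpd-60 pool. Serpina3n and Itih3 correlated at 0.44, and at 0.60 without that pool. The pair of probes of Gfap correlated at 0.83 and that of Itih3 at 0.92. Among 11338 probes detected on all 36 arrays, the genes most like Gfap in this measure were Pitpnm1 (0.87), Tubb4 (0.85), Tmem59l (0.85), Ifitm3 (0.84) and Gsto1 (0.84). Those most like Itih3 began with 6430537F04, Camk2n2 and Slc8a1 (0.88 each), and those most like Vim with Ptbp1 (0.85). Arrays of 1 pool share animals and deviations share hybridization and dissection, so these values describe the arrays only.

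Other genes of the same pathways were read from 4 lists, of which 48 genes were tested in PFC, 51 in NAc and 55 in HIP. In 462 tests against vehicle, 10 differences were of 1.2-fold or more with an unadjusted p under 0.05, 7 higher and 3 lower, and none passed after adjustment (limma, 24 had an unadjusted p under 0.05). Cpd-60 gave 8 of the 10. Its counts were 2 of 48 in PFC, 2 of 51 in NAc and 4 of 55 in HIP, while 1.11%, 1.78% and 1.53% of all probes met the same criterion. SAHA gave 0, where all probes gave 0.217% in PFC, 0.546% in NAc and 3.17% in HIP. CI-994 gave 1 in PFC, 0 in NAc and 1 in HIP, both of them H2-D1, where all probes gave 0.654%, 0.383% and 0.67%.

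Of 34 other reactive astrocyte genes on the array, 19 to 22 were tested in a region. Among them Fkbp5, a glucocorticoid-induced immunophilin, met the criterion under Cpd-60 in each region. In PFC it read 7.29, 7.99 and 7.21 against 7.07, 6.84 and 6.97 under vehicle, with no overlap and a difference of 0.54 ± 0.16. Its adjusted p was 0.79 (limma). The differences were 0.34 ± 0.15 in NAc and 0.36 ± 0.12 in HIP, where 1 Cpd-60 pool overlapped with vehicle. The second pool was the highest of the 3 Cpd-60 pools in each region, though by less than 0.01 in HIP. S100a6, a calcium-binding protein gene, read 8.51, 8.52 and 8.56 under Cpd-60 in PFC against 8.34, 8.30 and 8.13, a difference of 0.27 ± 0.07. Its direction was not the same in each region. In NAc its lowest Cpd-60 pool, 7.84, lay above the highest vehicle pool, 7.73. In HIP its Cpd-60 pools were all lower, at 7.72, 7.74 and 7.67 against 7.87, 7.88 and 7.82 under vehicle. S100a6 did not meet the criterion in NAc or HIP. Hspb1, a small heat shock protein gene, read 6.74, 6.79 and 6.94 against 7.19, 7.23 and 7.02 under Cpd-60 in HIP, a difference of -0.32 ± 0.09. H2-D1, an MHC class I gene, differed by 0.38 ± 0.17 in PFC and 0.35 ± 0.15 in HIP under CI-994, with overlap in both. In NAc its CI-994 pools read 8.28, 8.15 and 8.07 and lay above vehicle pools of 7.85, 7.95 and 7.80, at 0.30 ± 0.17. The list's median difference ran from -0.07 to 0.06 over the comparisons, and that of all probes from -0.01 to 0.00.

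Of 18 gp130 and STAT3 signaling genes on the array, 12 to 13 were tested in a region, and 3 met the criterion, all under Cpd-60. Cntfr, the CNTF receptor subunit, read 7.70, 7.45 and 7.45 in HIP against 7.24, 7.25 and 7.14, a difference of 0.32 ± 0.11. The kinase genes Tyk2 and Jak1 were lower in a single region each and overlapped with vehicle in the other regions. Tyk2 read 6.91, 6.98 and 7.03 in HIP against 7.27, 7.24 and 7.29 (-0.30 ± 0.07), and Jak1 read 7.83, 7.76 and 7.50 in NAc against 8.09, 8.18 and 7.86 (-0.34 ± 0.11). Adjusted p was at least 0.81 for each (limma). No acute-phase gene and no hyaluronan gene met the criterion. Only 7 to 9 of the 25 acute-phase genes on the array were tested in a region, and 8 to 12 of the 13 hyaluronan genes. In each region 16 to 18 of the acute-phase genes were detected on no array, so nothing can be read for them. Timp2 under CI-994 in PFC (0.30 ± 0.18) and Bcan under SAHA in HIP (-0.27 ± 0.19) had non-overlapping pools.

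Homeostatic astrocyte genes gave 6 calls in 129 tests at the same criterion, 5 higher and 1 lower, none after adjustment (limma; 9 at an unadjusted p under 0.05). By comparison, 0.217% to 3.17% of all probes met it. The astrocyte connexin genes Gja1 and Gjb6 accounted for 4 of them. Gja1 in NAc read 11.29, 11.40 and 11.68 under Cpd-60 and 11.35, 11.53 and 11.65 under SAHA, against 11.22, 11.16 and 11.11 under vehicle. The differences were 0.30 ± 0.12 and 0.35 ± 0.12. Gjb6 in NAc read 9.46, 9.36 and 9.99 under SAHA against 9.13, 9.07 and 9.003 (0.54 ± 0.23), and in HIP 10.23, 10.40 and 10.06 under Cpd-60 against 9.90, 9.80 and 10.00 (0.33 ± 0.12). In HIP under SAHA, where Gfap was lower, the glutamate transporter gene Slc1a3 read 12.32, 12.58 and 12.47 against 12.03, 12.05 and 12.32 (0.33 ± 0.12), and the 15 markers averaged 9.37 to 9.41 against 9.35 to 9.36. Aldh1l1 differed by -0.30 ± 0.09 under CI-994 in PFC. Without vehicle pool 2 the 6 calls fell to 1.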

How the data were processed

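Raw probe intensities and a detection p-value per probe and array, as deposited by the authors from Illumina MouseWG-6 BeadChips, were used; the scanner software and its version are not given in the sources used here. Quantile normalization was run on all 36 arrays at once, and values were floored at 1 and put on the log2 scale (limma 3.58.1, R 4.3.3). A probe was tested in a region if its detection p-value was at most 0.2 in the 3 pools of at least 1 group, which left 22156 probes in PFC, 23242 in NAc and 23275 in HIP. Each drug was compared with vehicle by limma's moderated test on the 12 arrays of a region. Vehicle levels were compared between regions in a fit of 36 arrays that took each pool of mice as a block, because the 3 regions of a pool come from the same mice. Benjamini-Hochberg adjustment ran over all probes tested, with thresholds of 0.05 and 1.2-fold. The number of arrays limits the precision, and 3 pools against 3 cannot reach an exact permutation p under 0.1. The fits were tested on simulated data. Each gene was named by the symbol in the file; Tubb4 is Tubb4a in RefSeq and 6430537F04 is Grin3a. All 8 genes were named with every comparison in which their pools separated, list genes by their largest separated differences, up to 3 each way per list, and likeness by the highest 5 correlations. Mbp and Mog in HIP and the probes of the second Cpd-60 pool were named after their values were seen. The genes, lists and rules were chosen with earlier results of these data known. Alternatives were neqc normalization, 27 arrays without CI-994, stricter and no filters, blocks, leaving out each pool, the mean of all probes of a gene, and the methods' test.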

Additional observations from a re-analysis of the deposited data

Results flagged for a closer look

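Under SAHA, mean Gfap lay below vehicle in HIP and above it in NAc: the HIP difference from vehicle minus the NAc difference was -1.46 on the log2 scale. Each of the 3 SAHA pools lay below the vehicle mean in HIP (-0.51, -0.88 and -1.05) and above it in NAc (0.57, 0.0021 and 1.36), pool 2 in NAc by next to nothing. When single pools were left out, the NAc difference ran from 0.28 to 0.96 and the HIP difference from -0.99 to -0.69. The second Gfap probe differed by -0.37 in HIP and 0.21 in NAc, with overlap in both, and the NAc groups of the first probe overlapped too. The difference between regions was not tested, because Gfap was chosen for it.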

How the results depend on the processing

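The 6 calls between regions stayed at 6 to 7 under the alternatives run, 6 with no replicate block and 6 with the BeadChip as a random block. The count of separated pairs of gene and drug comparison, 6 as reported, was 11 with neqc normalization, which kept all 6 and added Vim, Osmr and Cd44 differences that were under 1.2-fold before, and ran from 4 to 10 when a pool was left out. It was 4 without the second Cpd-60 pool, which removed Lcn2 in NAc and HIP, and 10 without vehicle pool 1. It was 5 with detection at 0.01, where Lcn2 under Cpd-60 in NAc was no longer tested, and 5 with the mean of all probes, which ended the call for Gfap under Cpd-60 in NAc. The 10 calls in the pathway lists were 22 with neqc and 3 by the methods' test with Tukey's correction (the 6 homeostatic calls were 1 by it), and ran from 8 to 18 over the pools left out, highest without Cpd-60 pool 3. The homeostatic calls ran from 1 to 9. Gfap under Cpd-60 in NAc was 1.09 with neqc and 0.44 for the mean of both probes. With the BeadChip as a block in the drug fits, Gfap under SAHA in HIP was -0.64 and Itih3 under SAHA in NAc was 0.78. Gfap under SAHA in HIP was -0.51 without SAHA pools 2 and 3, an alternative chosen after seeing the data. The remaining pool 1 also detected fewer probes than the HIP arrays of other treatments. Of 831 recomputed differences of the 8 genes, 798 moved by less than the SD between pools and no called value reversed. With the pool number as a replicate block in the drug fits there were 6 separated pairs, 11 pathway list calls and 8 homeostatic calls. Pools of different treatments share only a number, and same-numbered deviations correlated from -0.44 to 0.87. For Lcn2, Cd44, Osmr and Timp1, signal near background limits what a difference of this size can show.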

Other observations

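Among the cell type marker lists, the genes with the largest separated differences, pools of drug and vehicle not overlapping and at least 1.2-fold, included the following, given as drug minus vehicle on the log2 scale with the SE. None passed adjustment (limma). Blood markers had a median difference below 0 in all 9 comparisons. The hemoglobin gene Hba-a1 was separated and lower under CI-994 in HIP (-0.78 ± 0.18), SAHA in NAc (-0.72 ± 0.33) and SAHA in HIP (-0.52 ± 0.18). Hbb-b1 was so under CI-994 in HIP (-0.60 ± 0.15) and PFC (-0.58 ± 0.14), Cpd-60 in NAc (-0.56 ± 0.24) and SAHA in PFC (-0.46 ± 0.14) and NAc (-0.42 ± 0.24). Under CI-994 in HIP the neuronal transcription factor gene Pou3f1 differed by 0.36 ± 0.11 and the complement gene C1qa by 0.26 ± 0.08. CI-994 in NAc gave -0.46 ± 0.14 for the endothelial gene Ly6c1 and -0.45 ± 0.17 for the myelin gene Mog, and in PFC 0.32 ± 0.13 for the myelin gene Cnp.

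SAHA in NAc, the comparison in which Itih3 pools separated, gave -0.48 ± 0.21 for Pde10a, -0.39 ± 0.21 for Tac1 and -0.77 ± 0.42 for Slc17a7, which are neuronal genes. It gave 1.02 ± 0.60 for Ttr, 0.37 ± 0.18 for the meningeal gene Dcn and 0.27 ± 0.13 for Rarres2. SAHA in HIP gave -0.54 ± 0.17 for Mal, -0.41 ± 0.16 for Mobp, -0.48 ± 0.11 for the ciliary gene Dynlrb2, -0.31 ± 0.07 for the dopamine receptor gene Drd1a and 0.34 ± 0.16 for the tight junction gene Cldn5, while SAHA in PFC gave 0.32 ± 0.14 for Mbp. Cpd-60 gave -0.46 ± 0.15 for the microglial receptor gene Cx3cr1, -0.32 ± 0.10 for Slco1c1 and -0.31 ± 0.11 for Col1a1 in NAc, and -0.28 ± 0.16 for Cldn5 in PFC.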
